A study of Arabidopsis thaliana with 24 samples.

Results

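Heat shock proteins are chaperones that keep other proteins from clumping or help them fold, and heat shock factors are the DNA-binding proteins that switch their genes on or, for some factors, hold the others back. Transcripts of 10 such genes were followed here: every probe set that is assigned to a single gene and whose symbol, with or without a leading AT, begins with HSP, HSC or HSF. They stand among the 22746 probe sets tested. The 10 comprise 6 small heat shock proteins, 1 cytosolic HSP70 and 3 heat shock factors, and no HSP60, HSP90 or HSP100 gene was among those named. Only 2 of the 10, ATHSP22.0 and Hsp70-2, carry their names in the array's annotation. The other 8 were named through the study's own lists of regulated genes, 6 members being in its nitrogen list and 4 in its light list (of which only a part was held here). Since those lists were drawn on these same arrays, the counts of members responding to nitrogen, and of the 4 responding to light, are not independent evidence of a response. A further probe set with a heat shock symbol is assigned to several genes and was left out. Of the 10 probe sets, 0 carry the suffixes that mark probes shared between related genes.

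The plants were Arabidopsis thaliana seedlings of the Columbia background (Col-0), either bzip1-1, a line with a T-DNA insertion in the single exon of the transcription factor gene bZIP1, or WT-sib, a sibling without that insertion. Both genotypes were thus represented by 1 line each. All seedlings grew for 14 days at 22°C on 0.5 mM KNO3 with 16 h of light a day at 50 μE per square metre and second. They then spent 2 h, from the start of the light cycle, on medium with 20 mM KNO3 plus 20 mM NH4NO3 (+N) or on a KCl mock medium (-N), either in the growth chamber light (+L) or wrapped in foil (-L). No heat treatment was described for any group. The temperature of the plates during the 2 h, in light or under foil, was not reported. This gave 8 groups, with 3 arrays from independent experiments in each and 24 in all, and RNA came from whole seedlings.

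Arrays had median signals between 182 and 216 (arbitrary units, scaled so that all arrays share a trimmed mean), and the lowest correlation between any 2 arrays was 0.852. Both leaf genes (RCA, PRK and SBPASE, 3 of 6 listed) and root genes (PYK10, EXPA7 and EXPA18, 3 of 7 listed) were measured, with adjusted p of 0.149 or more for light and 0.862 or more for nitrogen. The 2 arrays of replicate number 1 in -N+L went against their genotype labels for the transcript AT3G56290, chosen here after its values were seen. The WT-sib array read 7861 where the other 5 illuminated WT-sib arrays read 1656 to 2687, and the bzip1-1 array read 1806 where the other 5 read 6747 to 11651. Where leaving them out ended or made a call for light, nitrogen or N*L, both values are given. The probe set of bZIP1 itself is not named in the array's annotation, and its level was not used here to check the labels. The paper counts bZIP1 among the genes affected by genotype, and reports its transcript as undetectable by RT-PCR in bzip1-1. It also reports a many-fold repression of bZIP1 in its comparison of WT-sib with bzip1-1 expression along the chromosome.

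Small heat shock proteins bind unfolding proteins without using ATP and hold them for later refolding by HSP70 with its partners. In plants they are known for being nearly silent in unstressed leaves and for rising steeply when a class A heat shock factor binds the heat shock elements of their promoters. Heat shock factors of the A4 group respond to oxidative conditions, and HSFA5 is known in Arabidopsis as a partner that represses A4 factors.

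Light changed 9 of the 10 transcripts. In a limma fit over all probe sets, averaged over nitrogen and genotype, 7 were higher in +L (13.2% of all probe sets were) and 2 were lower (11.7% of all). The members that rose were 5 of the 6 small heat shock proteins, Hsp70-2 and the factor HSFA4A. The members that fell were the factors HSFA4C and HSFA5. The median log2 change was 1.45 over the 10 members and 1.77 over the small heat shock proteins, against 0.00 over all probe sets. All 5 members found in the nitrogen list and not in the part of the light list held here were among the 7 that rose. These 5 were named only through the study's lists, and the rest of the light list was not seen. They were therefore not drawn independently of these arrays. With 8 of the 10 named in this way, the shares of all probe sets are not an even comparison for these counts. In whole seedlings, a change in the cells that make a transcript and a change in transcript per cell cannot be told apart.

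**Figure D1:**
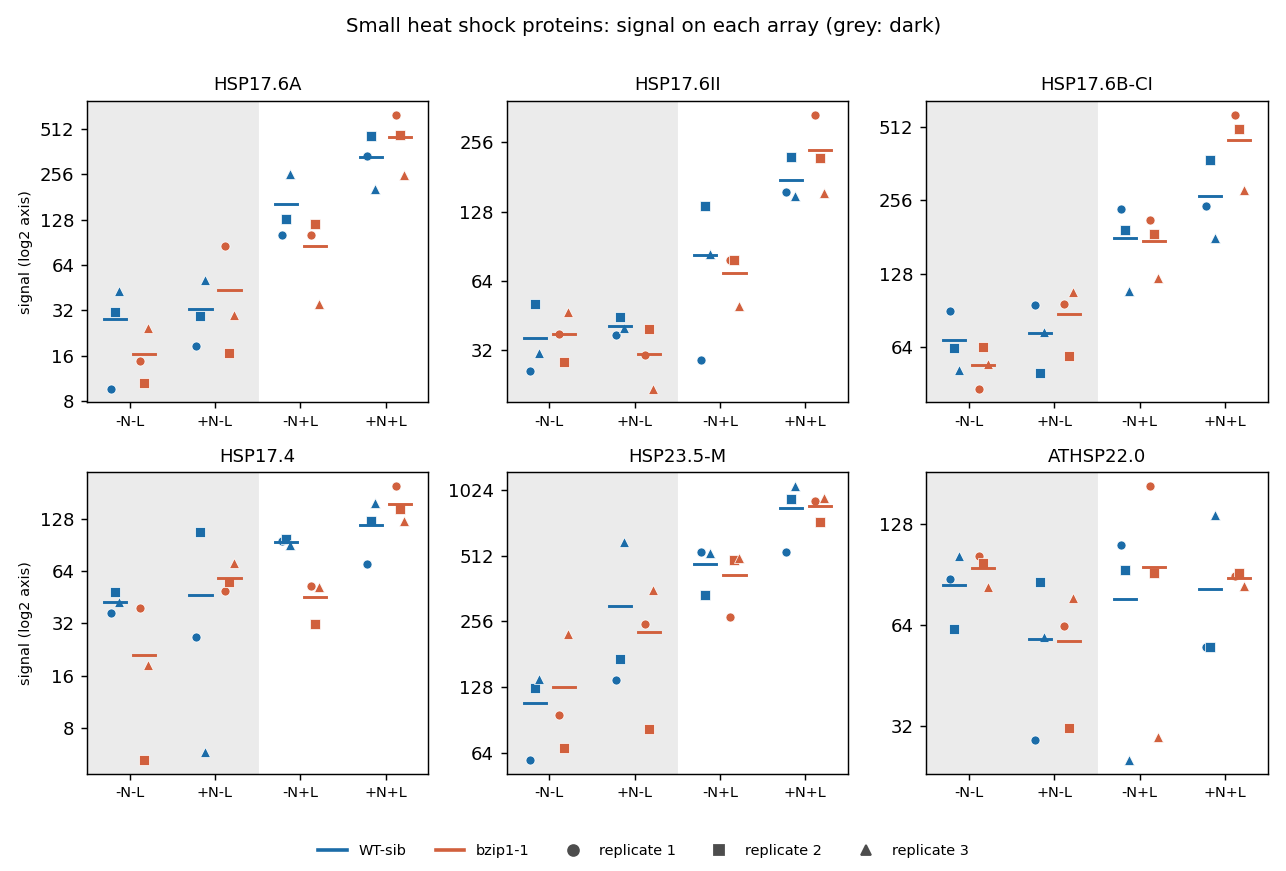
Signal of the 6 small heat shock proteins on each of the 24 arrays (vertical axis, arbitrary units on a log2 scale, each panel with its own range) in the 4 treatments (horizontal axis), with WT-sib in blue, bzip1-1 in orange, 1 symbol per replicate number and a bar at each group's mean. The illuminated arrays of HSP17.6B-CI (109 to 575) all lie above its dark arrays (43.1 to 107), while those of ATHSP22.0 overlap.

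HSP17.6A (AT5G12030), a cytosolic class II small heat shock protein, had the largest light response of the 10. Its dark signal was 9.73 to 85.1 with a median of 26.9 over 12 arrays. In -N+L the WT-sib arrays read 101.2, 129 and 254 and the bzip1-1 arrays 100.8, 119 and 35.4. In +N+L they read 336, 458 and 204 in WT-sib and 633, 466 and 252 in bzip1-1. Only 1 illuminated array, the lowest of bzip1-1 -N+L, fell within the dark range, and in all 12 pairs of arrays with the same genotype, nitrogen state and replicate number the illuminated one was higher. The log2 change was 2.98 ± 0.33 (SE), a 7.86-fold rise (limma, adjusted p = 7.382e-07). In rank terms, the transcript moved from a median of the 15.5th percentile of an array's probe sets in the dark to the 52.8th in light. Its dark values are near the bottom of the scale, where the tenth percentile of an array lay between 10.4 and 18.6, so the size of the change is uncertain: with 32 added to every signal it was 2.00 on the log2 scale.

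HSP17.6II (AT5G12020), another class II protein, lies next to HSP17.6A on the chromosome, with 0 annotated protein-coding genes between them in the TAIR10.1 annotation. Its 12 dark arrays spanned 21.7 to 50.7 with a median of 37.3. In -N+L the arrays read 28.9, 136 and 84.0 in WT-sib and 78.4, 78.9 and 49.8 in bzip1-1, so 2 of the 6 still lay within the dark range. In +N+L they read 156, 221 and 149.6 in WT-sib and 338, 219 and 155 in bzip1-1. All 6 of these exceeded all 18 other arrays, and HSP17.6II was the only member for which a single treatment stood clear of the other 3 in this way. The log2 change with light was 1.73 ± 0.23 (limma, adjusted p = 9.028e-06), and 1.19 with the added 32.

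HSP17.6B-CI (AT2G29500), a cytosolic class I protein, read 43.1 to 107 with a median of 63.4 in the dark. In light its WT-sib arrays read 236, 193 and 109 in -N and 243, 375 and 179.7 in +N. The bzip1-1 arrays read 211, 186 and 123 in -N and 575, 503 and 281 in +N. The illuminated and dark arrays did not overlap, which held for 2 of the 10 members, the other being Hsp70-2, and for 1.61% of all probe sets in this direction. The log2 change was 1.81 ± 0.19 (limma, adjusted p = 4.112e-07).

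HSP23.5-M (AT5G51440), targeted to the mitochondrion, was the brightest small heat shock protein. In the dark it read 59.2 to 591 with a median of 139, the highest value coming from 1 WT-sib +N-L array. Its illuminated arrays read 268 to 1071 with a median of 535. It was higher in light in all 12 pairs, with a log2 change of 1.98 ± 0.28 (limma, adjusted p = 1.492e-05). HSP17.4 (AT3G46230), a class I protein, was dimmer and noisier. Its dark arrays spanned 5.23 to 108 with a median of 40.9 and its illuminated arrays 31.96 to 198 with a median of 96.7, and it too was higher in 12 of 12 pairs. Its log2 change was 1.55 ± 0.37 (limma, adjusted p = 0.00335), or 0.87 with the added 32.

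ATHSP22.0 (AT4G10250), the protein of the endoplasmic reticulum, did not pass. Its 12 dark arrays had a median of 79.9 (29.0 to 103) and its 12 illuminated arrays a median of 90.2 (25.3 to 165). The log2 change was 0.14 with a 95% interval of -0.50 to 0.77 (limma, adjusted p = 0.821). It was also the only member found in no list of regulated genes held here.

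Hsp70-2 (AT5G02490), a cytosolic chaperone that uses ATP to refold client proteins, was abundant in every group. Dark arrays read 315 to 782 with a median of 574. In light the WT-sib arrays read 1660, 1002 and 1899 in -N and 1339, 939 and 1193 in +N. The bzip1-1 arrays read 1415, 1199.6 and 1975 in -N and 1763, 1146 and 1157 in +N. Every illuminated array was above every dark one. The log2 change was 1.36 ± 0.16, a 2.57-fold rise (limma, adjusted p = 1.351e-06). It was the only member of the 7 that rose whose highest median lay in -N+L (1537) and not in +N+L (1175). For the other 6, the +N+L median was the highest of the 4 treatments.

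**Figure D2:**
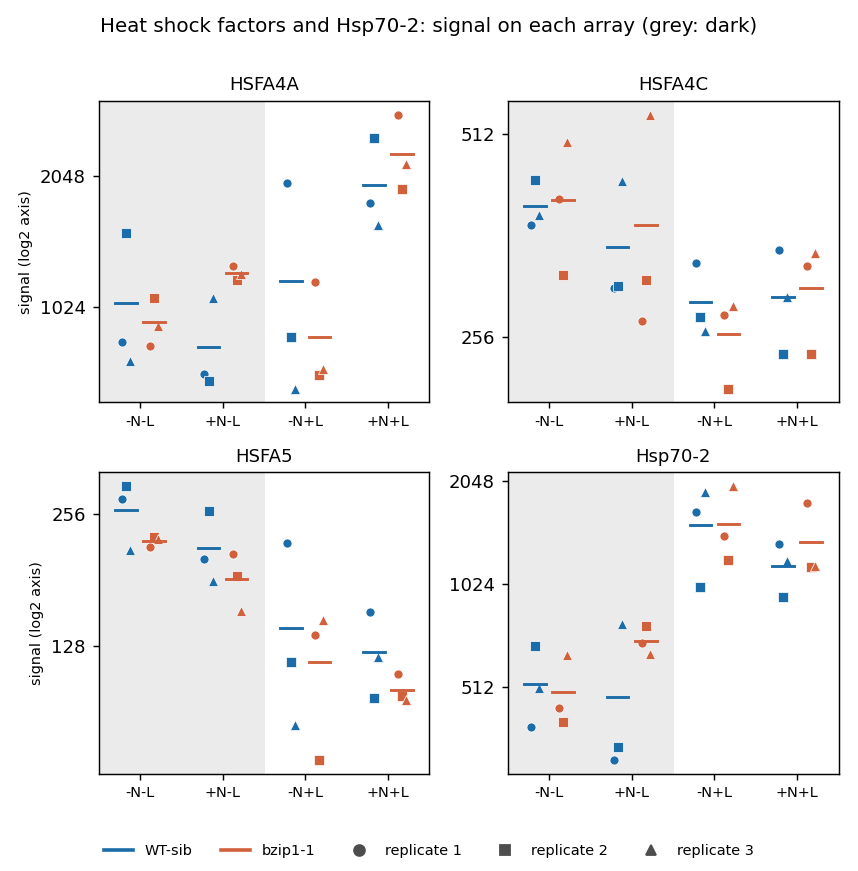
Signal of the 3 heat shock factors and Hsp70-2 on each of the 24 arrays (vertical axis, arbitrary units on a log2 scale), plotted by treatment as for the small heat shock proteins. HSFA4A is highest in +N+L (median 2045), HSFA4C and HSFA5 are lower in light, and Hsp70-2 in light lies above all its dark values.

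The 3 heat shock factors did not move together. HSFA5 (AT4G13980), the repressor of A4 factors, read 153 to 296 with a median of 213 in the dark and 70.2 to 219.7 with a median of 114 in light. It was lower in light in 12 of 12 pairs, though the ranges overlapped through 1 WT-sib -N+L array at 219.7, and fell by 0.91 on the log2 scale (SE 0.16, limma, adjusted p = 0.000179). HSFA4C (AT5G45710), known from root gravitropism and also named RHA1, read 269.6 to 546 with a median of 382 in the dark and 214 to 345 with a median of 279.7 in light. It was lower in 10 of 12 pairs and fell by 0.41 on the log2 scale (SE 0.12, limma, adjusted p = 0.0192).

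HSFA4A (AT4G18880), the brightest of the 10 with a mean signal of 1294, had its highest median in +N+L. In -N its dark arrays read 851, 1518 and 769 in WT-sib and 831, 1072 and 927 in bzip1-1. Its -N+L arrays read 1980.2, 872 and 664 in WT-sib and 1171, 713 and 737 in bzip1-1. The 6 arrays of each light state overlapped. In +N the dark arrays read 717, 693 and 1071 in WT-sib and 1274, 1178 and 1221 in bzip1-1. The +N+L arrays read 1776, 2503 and 1584 in WT-sib and 2839, 1909.9 and 2181 in bzip1-1, all above the +N-L arrays of both genotypes. The average light change was 0.52 ± 0.16 on the log2 scale (limma, adjusted p = 0.0229), higher in 8 of 12 pairs. With the 2 arrays named above left out (-N+L, number 1), it no longer passed the threshold; they hold the highest -N+L values in both genotypes. The log2 change was then 0.34 (limma, adjusted p = 0.0588).

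Taken separately in each genotype and nitrogen state, with 3 arrays against 3, light gave fewer calls. Among the 10, 4 were higher in WT-sib -N (2.88% of all probe sets), 5 in WT-sib +N (3.17% of all), 4 in bzip1-1 -N (4.01% of all) and 4 in bzip1-1 +N (1.89% of all). HSP17.6A and HSP17.6B-CI were called in all 4 states, and HSP23.5-M in all but WT-sib +N (1.75, limma, adjusted p = 0.0679). The log2 change of HSP17.6A was 2.66 and 3.38 in WT-sib without and with nitrogen and 2.27 and 3.59 in bzip1-1, with an SE of 0.66. HSP17.6II was called in the +N states alone, at 2.10 in WT-sib and 2.93 in bzip1-1, against 1.01 and 0.88 in -N (SE 0.47). Hsp70-2 was called in all states but bzip1-1 +N, where its log2 change was 0.92 (95% interval 0.27 to 1.58). HSFA4A was called in WT-sib +N only, at 1.24, with 0.90 in bzip1-1 +N and 0.07 and -0.14 in -N. With the number 1 arrays of -N+L left out, 4 calls were lost, with fewer arrays and log2 changes of 1.13 or more. They were HSP17.6A in bzip1-1 -N (2.05, limma, adjusted p = 0.132), HSP17.6B-CI in WT-sib -N (1.13, adjusted p = 0.146), and HSP23.5-M in WT-sib -N and bzip1-1 -N (2.07 and 2.14 after 2.18 and 1.84, adjusted p = 0.0633 and 0.0524). Calls gained in the same way were HSP17.6II in WT-sib -N (0.0312), HSFA4A in bzip1-1 +N (0.0426), and HSFA5, as lower, in WT-sib -N (0.0103) and bzip1-1 -N (0.0329). These patterns of calls do not by themselves show that the states differ, and the difference itself was tested by the interaction terms.

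**Figure D3:**
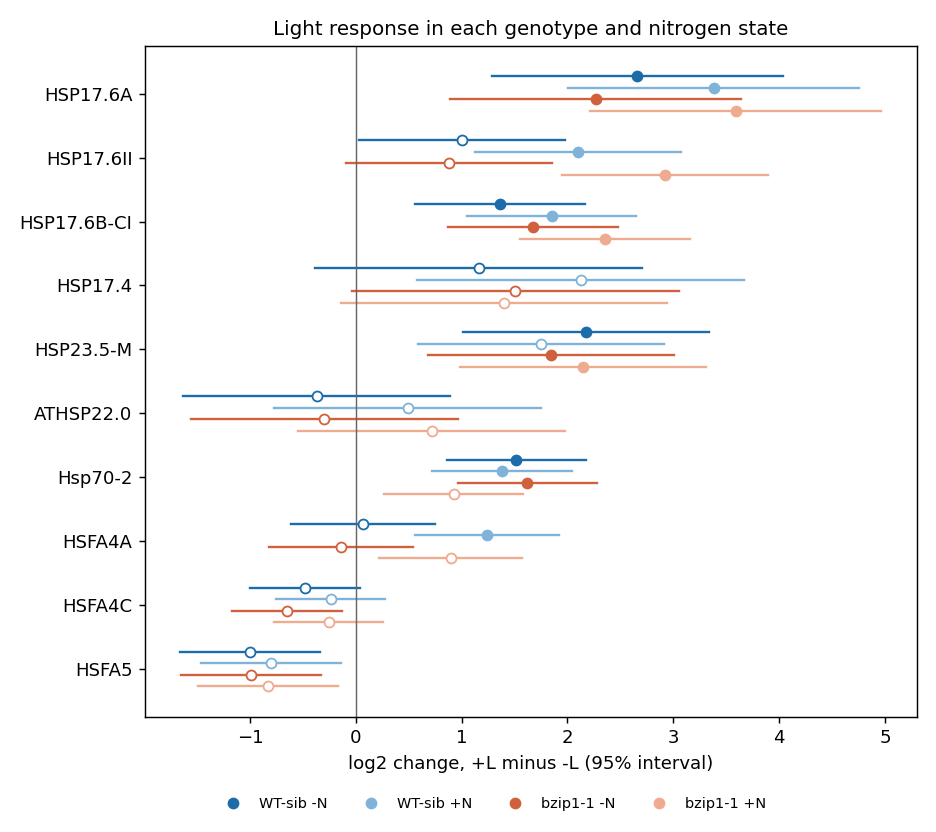
Log2 change with light (+L minus -L, horizontal axis) of each of the 10 members in the 4 combinations of genotype and nitrogen, with 95% intervals and filled symbols where the adjusted p is under 0.05. HSP17.6A and HSP17.6B-CI are filled in all 4 states, and HSP17.6II and HSFA4A lie further to the right in +N than in -N.

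In the fit without the replicate number as a term, no member passed the test for nitrogen. The limma fit, averaged over light and genotype, called 0 of the 10 in either direction (0.699% of all probe sets were higher and 0.255% lower in +N), with 6 at an unadjusted p under 0.05, and an ANOVA on the linear signal also passed 0 after adjustment. Of those 6, all had higher values in +N. HSP17.6A came nearest, with a log2 difference of 1.27 ± 0.33 (limma, adjusted p = 0.0774) and higher values in 10 of 12 pairs. HSP23.5-M was higher in 12 of 12 pairs, by 0.99 ± 0.28 on the log2 scale (adjusted p = 0.122 in limma), with medians of 563 over 12 +N arrays and 246 over 12 -N arrays. The log2 differences of HSP17.4, HSP17.6II, HSP17.6B-CI and HSFA4A were 0.80, 0.74, 0.67 and 0.59. All 6 are the members of the study's nitrogen list, which was chosen on these arrays. The remaining 4 had differences between -0.26 (ATHSP22.0) and -0.04 (HSFA4C). With the number 1 arrays of -N+L left out, the difference for HSFA4A was 0.77 and passed the threshold (limma, adjusted p = 0.00341). It also passed without WT-sib -N-L replicate 2, and HSP17.6A and HSP23.5-M passed without bzip1-1 +N-L replicate 2. With the replicate number as a block, HSFA4A, HSP17.6A, HSP17.6B-CI and HSP23.5-M passed, as given under the processing.

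Within single states nitrogen passed 0 members in WT-sib -L (0.00440% of all probe sets were higher), WT-sib +L (0.106%), bzip1-1 -L (0.00879%) and bzip1-1 +L (0.220%) in limma, with 1, 2, 1 and 5 members at an unadjusted p under 0.05 in that order. In illuminated bzip1-1, the log2 differences were 2.48 for HSP17.6A, 1.79 for HSP17.4, 1.74 for HSP17.6II, 1.42 for HSFA4A and 1.36 for HSP17.6B-CI. These 5 were picked by an unadjusted p under 0.05 in that state. HSP23.5-M, outside them, had 1.09 there and 0.83 in illuminated WT-sib. In illuminated WT-sib the 5 genes had 1.08, 0.24, 1.32, 0.87 and 0.57. Because of that choice, these values do not compare the genotypes evenly. With the number 1 arrays of -N+L left out, the WT-sib values in the same order were 0.80, 0.25, 0.69, 1.33 and 0.81 and those of bzip1-1 were 2.70, 1.91, 1.85, 1.65 and 1.52, and HSFA4A in bzip1-1 then passed (limma, adjusted p = 0.00712). The median over the small heat shock proteins was 1.55 in illuminated bzip1-1 and 0.70 in illuminated WT-sib, where that of all probe sets was -0.07 and -0.06.

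**Figure D4:**
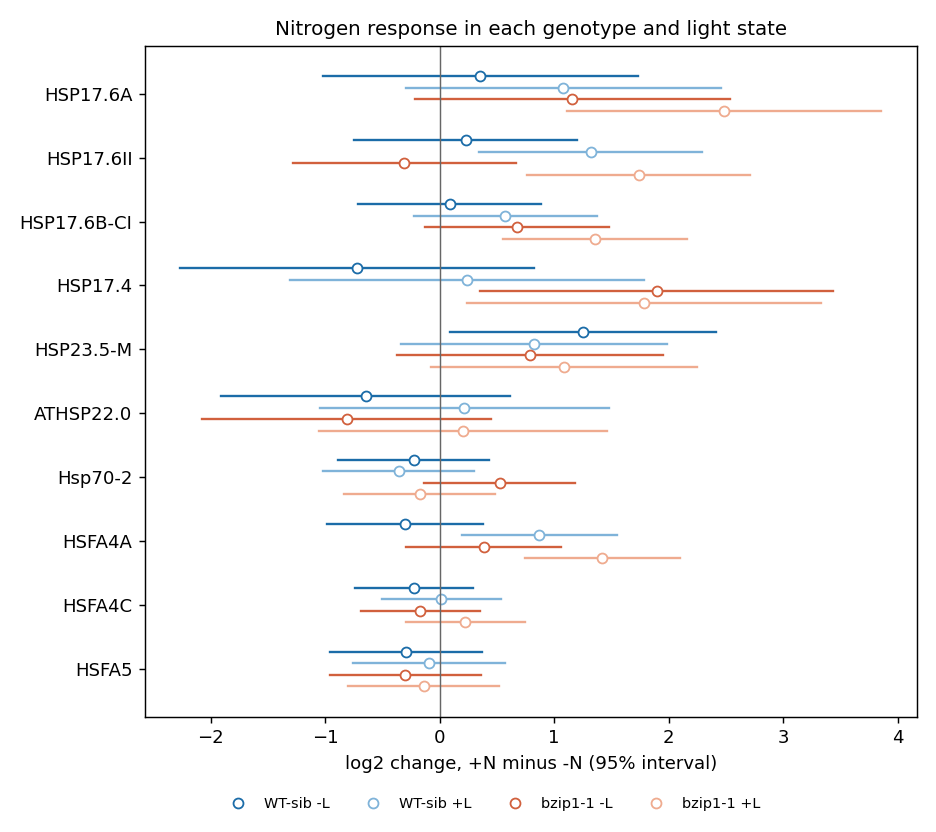
Log2 difference with nitrogen (+N minus -N, horizontal axis) of each of the 10 members in the 4 combinations of genotype and light, with 95% intervals and open symbols throughout, since none had an adjusted p under 0.05. The intervals of 4 members in bzip1-1 +L (HSP17.6A, HSP17.6II, HSP17.6B-CI and HSFA4A) and of HSP17.4 there lie above 0. So do those of HSP17.6II and HSFA4A in WT-sib +L, HSP23.5-M in WT-sib -L and HSP17.4 in bzip1-1 -L.

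Whether the light response depended on nitrogen was tested by the N*L term, the log2 change with light in +N minus that in -N, averaged over genotypes. It passed 0 of 10 members (0.0396% of all probe sets) in limma, with 2 at an unadjusted p under 0.05, and 0 in the ANOVA. Those 2 were HSP17.6II, at 1.57 with a 95% interval of 0.60 to 2.54 (adjusted p = 0.691 in limma), and HSFA4A, at 1.11 with an interval of 0.43 to 1.78 (adjusted p = 0.690 in limma). With the number 1 arrays of -N+L left out, the term for HSFA4A was 1.45 and passed the threshold (adjusted p = 0.0272 in limma), while that for HSP17.6II was 1.31 (adjusted p = 0.698). For HSP17.6A it was 1.02 with an interval of -0.35 to 2.40.

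The comparison of bzip1-1 with WT-sib asked whether loss of bZIP1 altered these transcripts. Averaged over treatments, 0 of 10 members passed in limma (0.00879% of all probe sets), 0 had an unadjusted p under 0.05, and the ANOVA passed 0. The differences, bzip1-1 minus WT-sib, ran from -0.24 for HSP17.6A (95% interval -0.93 to 0.44) to 0.21 for Hsp70-2 (-0.12 to 0.54). The smallest p was that of HSFA5, at -0.23 with an interval of -0.56 to 0.10. Intervals were narrowest for HSFA4C, at -0.01 with -0.27 to 0.25, and wide for the dim small heat shock proteins at -0.22 with -0.996 to 0.55 for HSP17.4. Within each of the 4 treatments 0 members passed in limma and 0 in the ANOVA, with 1 in all at an unadjusted p under 0.05: Hsp70-2 in +N-L, where the WT-sib arrays read 315, 344 and 782 and the bzip1-1 arrays 689, 775 and 640.0. With the number 1 arrays of -N+L left out, the differences averaged over treatments ran from -0.37 (HSP17.6A) to 0.24 (Hsp70-2), and no member passed.

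The interactions with genotype also passed 0 of 10 members each, and no member passed them with the number 1 arrays of -N+L left out. For N*G (0% of all probe sets) 1 member had an unadjusted p under 0.05 in limma and the ANOVA passed 0. It was HSP17.4, whose nitrogen difference was 2.08 log2 units larger in bzip1-1 than in WT-sib (95% interval 0.54 to 3.63, adjusted p = 1.00 in limma). In WT-sib its log2 differences with nitrogen were -0.72 in the dark and 0.24 in light, and in bzip1-1 they were 1.90 and 1.79. This rests partly on single dim arrays, since the lowest values were 5.23 in bzip1-1 -N-L, beside 39.2 and 18.5, and 5.82 in WT-sib +N-L, beside 26.9 and 108. For L*G and N*L*G (0% of all probe sets for each) 0 members passed and 0 had an unadjusted p under 0.05 in limma, and the ANOVA passed 0. For N*L*G the smallest p was that of HSP17.6II, at 0.96 with an interval of -0.99 to 2.902, and 1.69 with the number 1 arrays of -N+L left out (adjusted p = 1.00 in limma). The L*G term, the light response in bzip1-1 minus that in WT-sib, lay between -0.28 (HSFA4A, 95% interval -0.96 to 0.40) and 0.41 (HSP17.6B-CI, -0.39 to 1.21). For HSP17.6A it was -0.09 with an interval of -1.47 to 1.28, against an average light response of 2.98.

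How far the members resemble each other was described by Pearson's r of log2 signal over the 24 arrays, with no test because the arrays share treatments. Among the 15 pairs of small heat shock proteins r ran from 0.04 to 0.87 with a median of 0.61. HSP17.6A was closest to HSP23.5-M (0.87), HSP17.6II (0.87) and HSP17.6B-CI (0.86). Of these, HSP17.6II is of the same class as HSP17.6A, while HSP23.5-M is mitochondrial and HSP17.6B-CI is of class I. All 5 pairs with ATHSP22.0 were at or below 0.17. HSFA5 ran opposite to HSP17.6A (-0.77) and HSP23.5-M (-0.75), and had -0.24 with HSFA4A and 0.59 with HSFA4C. HSFA4A had its highest values with HSP17.6B-CI (0.70) and HSP17.6A (0.63). Once each group's mean was taken away, the median over pairs of small heat shock proteins was 0.10, with a range of -0.25 to 0.51. For most pairs the likeness thus lay between the groups and little between arrays of a group. HSP17.6A kept 0.51 with HSP23.5-M and 0.44 with HSP17.6II, and had 0.12 with HSP17.6B-CI.

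Partners of the HSP70 and HSP90 machinery and other heat-induced genes were examined as a fixed list of 15, of which 11 could be matched to a probe set. Of these, BAG6, ROF1, DREB2A, J2 and J3 were named only through the study's regulated lists, drawn on these same arrays. All of them were higher in light, so the count below is not independent evidence of a response. Light raised 9 of the 11 and lowered 0 (13.2% and 11.7% of all probe sets). The study's regulated lists, as far as held here, contained 7 of the 11, all 7 of them higher, and the other 4 had 2 higher. Whether those 4 are in the rest of the light list was not seen. The largest rise was in ROF2, a heat-induced peptidyl-prolyl isomerase found in no regulated list held here, at 3.80 ± 0.36 on the log2 scale (limma, adjusted p = 8.077e-08). HOP3 and HOP2, which link HSP70 to HSP90, rose by 2.23 and 0.97, while HOP1 had 0.21 (limma, adjusted p = 0.0997). FES1A, which binds and stabilises cytosolic HSP70, rose by 2.12 (limma, adjusted p = 1.829e-10). The DnaJ cochaperones J2 and J3, which stimulate HSP70, rose by 1.02 and 0.90, ROF1, which binds HSP90, by 1.31, and BAG6, a calmodulin-binding member of the BAG cochaperone family, by 1.19. The lowest signals of ROF2 and BAG6 were 5.79 and 5.89, below the 10th percentile of any array (10.4 to 18.6). The sizes of these 2 changes are therefore uncertain. DREB2A, a transcription factor that activates the gene of HSFA3, rose by 1.78 with light. HSA32, needed for long-lasting heat tolerance, was at -0.19 (limma, adjusted p = 0.353). With nitrogen 2 of the 11 were higher (0.699% of all probe sets), DREB2A by 1.37 (limma, adjusted p = 0.00207) and FES1A by 0.54 (limma, adjusted p = 0.0415), and both are in the study's nitrogen list. For N*L 0 of the 11 passed (0.0396% of all probe sets). DREB2A had 2.22 ± 0.44 there (limma, adjusted p = 0.0985), so its light change, averaged above, was larger in +N than in -N by estimate.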

How the data were processed

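Whole seedlings were profiled on 24 Affymetrix ATH1 arrays, 3 for each of 8 groups. The authors deposited, for 22810 probe sets, the signal intensity that MAS 5.0 computes, which is linear and was scaled so that all arrays have the same mean after 2% are trimmed from each end. Detection calls were not used here. An array has no depth in reads, so precision rests on 3 arrays a group.

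The log2 of the signal was analysed with no offset. Leaving aside 64 control probe sets, 22746 remained. With limma (version 3.58.1, R 4.3.3) the 8 group means were estimated, the prior variance being allowed to follow the signal. Light (L), nitrogen (N), genotype (G), their interactions and the response in each state were contrasts. Two-sided p-values were corrected with the Benjamini-Hochberg method across the whole array at a threshold of 0.05. Unless stated otherwise, ± gives the SE of a contrast on the log2 scale.

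Members were matched by symbol, from the platform annotation and the study's lists of regulated genes, over the 14311 probe sets with 1 gene. The members and the gene lists (heat stress partners, chaperones of the endoplasmic reticulum and of organelles, light and oxidative stress, cold, leaf and root genes) were chosen with earlier results of these data known. Described in full were all members that passed a term, HSP17.6A, the brightest member of each kind and, for a term that none passed, the member with the smallest p. AT3G56290 stands outside this rule.

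Alternatives were the replicate number as a block, quantile or common-median scaling, an offset of 32, leaving out probe sets under the 40th percentile of mean log2 signal, no trend, a three-way ANOVA on linear signal, leaving out both -N+L arrays of number 1, and leaving out each array. Plots were made in matplotlib 3.10.9 under Python 3.11.15. Sequences of promoters and proteins were not used here.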

Additional observations from a re-analysis of the deposited data

How the results depend on the processing

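For light, 8 of the 9 changed members kept their direction and their adjusted p under 0.05 under every alternative that measured them, and the exception, HSFA4A, is given above. The filter on dim probe sets removed HSP17.4, HSP17.6A, HSP17.6II and ATHSP22.0, after which 6 of 6 passed. Where light was tested in each genotype and nitrogen state, 17 calls became 11 under the ANOVA on linear signal and 22 with the replicate number as a block, which added, among others, HSP23.5-M in WT-sib +N (adjusted p = 0.00903) and Hsp70-2 in bzip1-1 +N (adjusted p = 0.0474). For nitrogen, the 0 members passing became 1 with the offset of 32 (HSP17.6A), 1 without the -N+L arrays of number 1 (HSFA4A), and 0 to 2 with single arrays left out. For N*L it became 1 without the -N+L arrays of number 1. For nitrogen in each state it became 1 with the offset (HSP17.6A in bzip1-1 +L), 1 without the -N+L arrays of number 1 (HSFA4A in bzip1-1 +L) and 0 to 1 with single arrays left out, the 1 being HSFA4A without WT-sib -N+L replicate 1. The cause was not tested. No result reversed.

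The labels do not say that a replicate number marks a shared batch. Deviations from group means of same-numbered arrays correlated with a median of 0.25 and a range of -0.07 to 0.42, 65 of 84 pairs being over 0.1. Since not every pair was, the numbers were not taken as pairing in the main fit. Yet 23 of 24 arrays correlated best with an array of their own number. The paper describes biological triplicates from independent experiments, without saying that a number marks 1 experiment. The counts of same-numbered pairs given above are descriptions only. With the number as a block, 4 members passed for nitrogen (HSFA4A, HSP17.6A, HSP17.6B-CI and HSP23.5-M, with adjusted p of 0.0448, 0.0480, 0.0373 and 0.0118), and 1 for nitrogen in a single state (HSFA4A in bzip1-1 +L). Over all probe sets the block gave 416 higher and 236 lower for nitrogen against 159 and 58, and common-median scaling gave 219 and 42.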

Other observations

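Chaperones of other compartments were named less completely. Of 11 listed organelle chaperones 3 were measured, all 3 through the study's light list, and all 3 were higher in light: CLPB3, a plastid disaggregase, by 1.13, CR88, the plastid HSP90, by 0.64 and CPHSC70-1, a plastid HSP70, by 0.47 on the log2 scale (limma, adjusted p = 2.886e-09, 0.00788 and 0.00980). Of 9 chaperones of the endoplasmic reticulum 2 were measured, the calreticulins CRT1 and CRT2, and rose by 0.46 and 0.42 (limma, adjusted p = 0.00528 and 0.0187). For nitrogen these 5 had log2 differences between -0.14 and 0.06, with adjusted p of 0.681 or more in limma. CRT2 was found in no regulated list held here, and only a part of the light list was held. CRT1, like the 3 organelle chaperones, was named only through the study's light list, which was drawn on these same arrays. Their light calls are therefore not independent evidence of a response, and 13.2% of all probe sets were higher in light.

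Of 7 light and oxidative stress genes 2 were measured, the zinc finger factors ZAT12 and ZAT10, both in the study's nitrogen list. ZAT12 was higher with nitrogen by 1.56 (limma, adjusted p = 0.00147) and with light by 0.70 (limma, adjusted p = 0.0421). ZAT10 was higher with nitrogen by 1.05 (limma, adjusted p = 0.00247) and had 0.05 with light (limma, adjusted p = 0.896). These are averages over the other factors. The N*L terms were 1.80 ± 0.49 for ZAT12 and 1.06 ± 0.35 for ZAT10, and neither passed (limma, adjusted p = 0.492 and 0.833). Of 6 cold genes only COR15A was measured, with 1.83 ± 1.29 for light (limma, adjusted p = 0.359). For genotype 0 members of these lists passed.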
